A study of Mus musculus with 10 samples.

Results

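Motile cilia genes were followed in the hippocampus of mice that model trisomy of a part of human chromosome 21 (Hsa21). The genes were chosen by symbol, with a fixed pattern that takes Foxj1, the axonemal dyneins, radial spoke, central apparatus and tektin genes, Hydin, Ccdc39, Ccdc40, Ccdc153, Tmem212, Dynlrb2 and every numbered Cfap gene. Of 72 such symbols in the RefSeq annotation, 68 had a probe set of their own, out of 19939 genes measured. The other 4 were Rsph3a and Rsph3b, which share their probe sets, and Cfap73 and Cfap99, for which no probe set was named. Expression was measured in total RNA of the whole hippocampus, right and left, on Affymetrix Mouse Gene 1.0 ST arrays with 1 array per mouse. The 5 Dp3Yah mice carry a duplication of mouse chromosome 16 that the study names from Hspa13 to App, and the 5 control mice were littermates without it. All 10 mice were males of 16 weeks. The sample labels give a C57BL/6N background, whereas the study's methods describe backcrossing towards C57BL/6J, and which substrain applies was not settled here. The cells of the hippocampus were not separated, so fewer cells of a type and less RNA per cell cannot be told apart.

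Motile cilia beat because dynein motors slide the microtubule doublets of the axoneme past each other, under the control of radial spokes and a central apparatus. In the brain, ependymal cells, which line the ventricles and move cerebrospinal fluid, are among the cells that carry them. Foxj1 is the transcription factor that switches on the genes of motile cilia. The choroid plexus, an epithelium that hangs in the ventricle and secretes the fluid, expresses Ttr, the carrier of thyroxine and retinol-binding protein. RFX transcription factors share the control of many cilia genes and bind a palindromic DNA element, the X-box.

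The promoters of the motile cilia genes were searched for the letters of 1 arm of the X-box, because many cilia genes are known RFX targets. The windows, from 250 bases before to 50 after the start site (RefSeq, GRCm38.p6), were on hand for 58 of the 68 genes, in 65 windows. Cfap157, Cfap299, Cfap53, Cfap54, Cfap65, Cfap97, Dnah3, Foxj1, Rsph1 and Rsph4a had none. The X-box arm GTTGCC, on either strand (GGCAAC on the other), was present in 25 of the 65 windows (38.5%), against 2356 of all 19116 windows (12.3%). The forkhead letters GTAAACA, on either strand (TGTTTAC on the other), were present in 4 of 65 windows (6.15%) and in 575 of 19116 (3.01%). Neither motif contains the other, and a match is a description of the letters only. The stretches below, each 80 bases long and outside the annotated gene, show the X-box arms in capitals in an ependymal marker gene, a doublet protein gene, a dynein light chain gene and an Hsa21 homologue, with Tmem212 as a marker gene whose window held none.
Ccdc153: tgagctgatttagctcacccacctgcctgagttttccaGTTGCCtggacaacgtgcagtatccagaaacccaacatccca
Cfap44: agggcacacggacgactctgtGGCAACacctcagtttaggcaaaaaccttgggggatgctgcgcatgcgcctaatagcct
Dynlrb2: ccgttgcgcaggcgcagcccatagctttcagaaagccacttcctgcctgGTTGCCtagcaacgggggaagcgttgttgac
Cfap298: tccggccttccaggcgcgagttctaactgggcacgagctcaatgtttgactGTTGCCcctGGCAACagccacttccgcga
Tmem212: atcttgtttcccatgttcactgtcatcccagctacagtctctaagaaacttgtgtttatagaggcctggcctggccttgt
In GRCm38.p6 these lie at chr9:44240487-44240566 (plus strand), chr16:44394649-44394728 (plus strand), chr8:116504915-116504994 (plus strand), chr16:90934890-90934969 (minus strand) and chr3:27896392-27896471 (minus strand), in that order.

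The genes lay on 19 chromosomes. Of the 4 on chromosome 16, Tekt5, Spag6l and Cfap44 lie before the duplicated segment, and Cfap298 lies after it. The bounds used here were those of the genes Hspa13 and Gabpa, chr16:75755190-84863783 in GRCm38.p6. The study names the duplication from Hspa13 to App, so these bounds are not its exact ends. None of the 68 was inside them, so by position none of these genes belongs to those in extra copy. Cfap298 and Cfap410 are homologues of Hsa21 genes that lie outside the mouse segment studied here.

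Most of these genes gave low signals in whole hippocampus. Only 10 of the 68 had a mean above the median level of all genes (6.38 on the log2 scale), namely Ccdc153, Cfap20, Cfap298, Cfap36, Cfap410, Cfap54, Cfap97, Rsph9, Spag6l and Tekt5, and 3 exceeded the 75th percentile (8.04). The ependymal markers Foxj1, Rsph1 and Tmem212 were among the 58 at or below the median. The label of ependymal motile cilia therefore rests on low signals for its markers. Several of the brighter Cfap genes are also used outside motile cilia, and their levels cannot be assigned to ependymal cells here. The median level of an array ranged over 6.32 to 6.41. Every pair of arrays differed, with an SD over genes of 0.115 to 0.208.

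The amount of Ttr signal differed widely between mice of the same group. Ttr had log2 levels of 12.68, 13.04, 9.62, 9.37 and 13.40 in Dp3Yah replicates 1 to 5, against 13.25, 8.99, 10.17, 10.29 and 13.33 in control replicates 1 to 5. The mice thus formed 2 separate sets of 5, with 3 Dp3Yah and 2 control mice in the set with high Ttr, and a gap of 2.385 between the sets. Of the other choroid plexus epithelium genes listed, 15 of 16 followed Ttr across mice (limma adjusted p under 0.05), with a median slope of 0.294 log2 units per log2 unit of Ttr. Kcnj13, a potassium channel of the choroid plexus, had the highest slope of the list, 0.922 ± 0.0745 (SE). What set the Ttr level of a mouse was not tested.

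The first comparison asked whether motile cilia genes differed between Dp3Yah and control mice. None of the 68 passed limma's adjusted p of 0.05, against 3 of all 19939 genes (0.015%), which were Hspa13, Mrpl39 and Ncam2. At an unadjusted p under 0.05, 4 motile cilia genes were higher in Dp3Yah mice (5.88%, against 2.49% of all genes) and 1 was lower (1.47%, against 2.59% of all genes). The lowest adjusted p among the motile cilia genes was 0.922. Their median log2 change was 0.0094, against -0.0047 for all genes. Of the 68, 38 were above 0 and 30 below, against 9328 above and 10611 below for all genes. The 95% interval of the change lay within 1.5-fold in either direction (0.58 on the log2 scale) for 67 of the 68. Rsph4a was the exception. These intervals bound the change in array signal. For the 58 genes at or below the median level, height above background is unknown, so the change in RNA is not bounded. No gene had all Dp3Yah mice above, or all below, every control mouse.

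**Figure D1:**
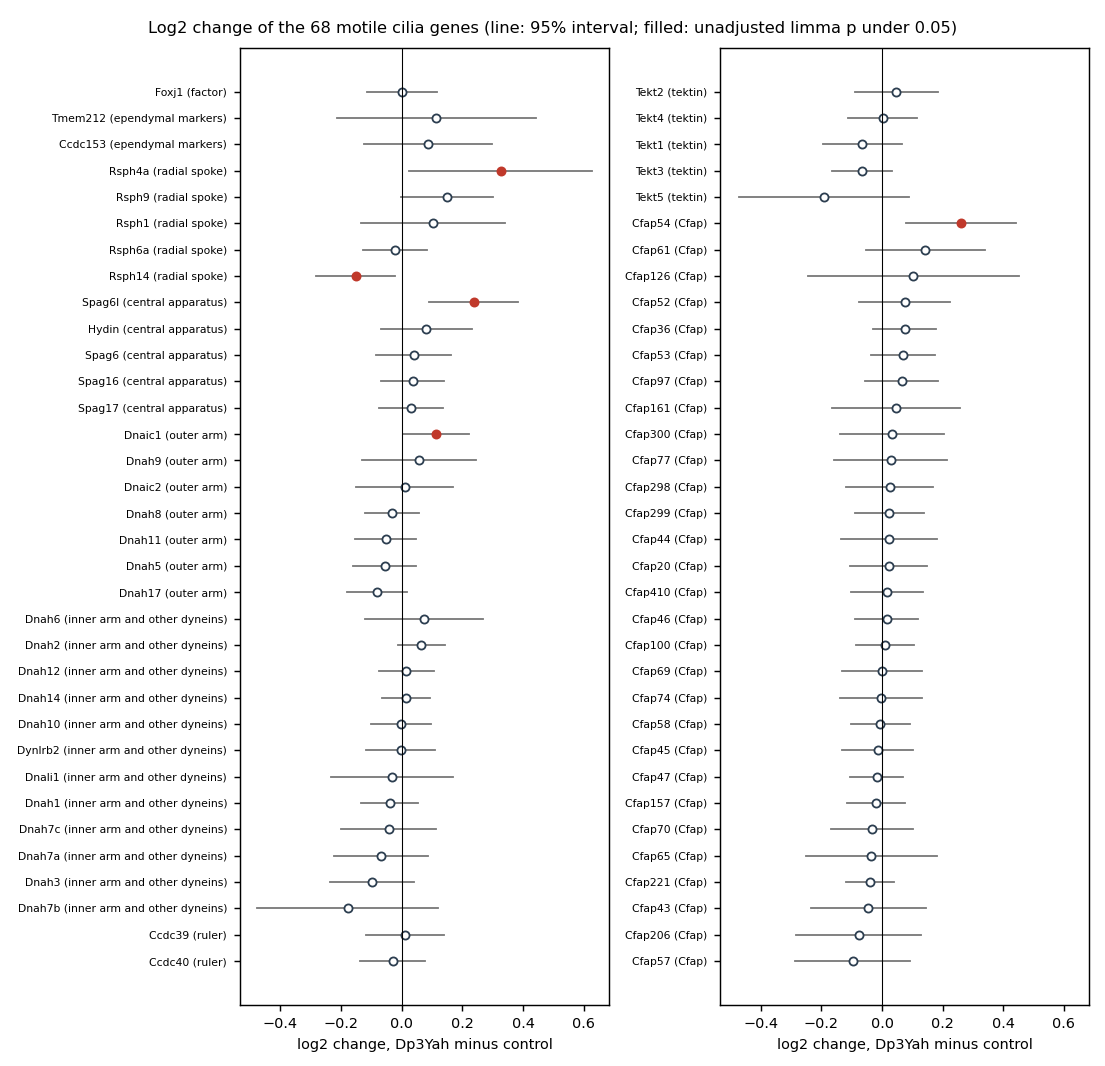
Log2 change (Dp3Yah minus control) on the x axis for each of the 68 motile cilia genes, listed by role, with 95% intervals as lines, from 5 mice a group. Filled points mark the 5 genes at an unadjusted limma p under 0.05, and no gene passed the adjusted threshold.

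Radial spoke genes held both the largest positive change and one of the largest negative ones. Rsph4a, a protein of the spoke head, had log2 levels of 6.13, 6.05, 5.88, 5.78 and 6.24 in Dp3Yah mice, against 5.90, 5.29, 5.57, 5.55 and 6.14 in control mice. The groups overlapped, since control replicates 1 and 5 lay within the Dp3Yah range, and the log2 change was 0.33 ± 0.14 (SE, limma adjusted p = 0.922). Rsph14, annotated as another spoke protein, had 4.70, 4.55, 4.56, 4.47 and 4.64 in Dp3Yah mice and 4.84, 4.58, 4.65, 4.82 and 4.78 in control mice. Its control replicates 2 and 3 overlapped the Dp3Yah range, with a change of -0.15 ± 0.06 (SE, limma adjusted p = 0.922). The spoke head genes Rsph9 and Rsph1 had changes of 0.15 ± 0.07 and 0.10 ± 0.11 (SE), neither of which passed.

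Foxj1, the regulator, gave nearly the same level in every Dp3Yah mouse. Its log2 levels were 5.86, 5.86, 5.85, 5.88 and 5.86 in Dp3Yah mice, against 5.95, 5.72, 5.77, 5.86 and 5.99 in control mice. All Dp3Yah values fell inside the control range, and the change was 0.00 ± 0.05 (SE). Tmem212, a membrane protein that marks ependymal cells, had 5.94, 6.05, 5.70, 5.73 and 6.36 in Dp3Yah mice and 5.91, 5.33, 5.82, 5.97 and 6.17 in control mice. The 2 groups overlapped, and the change of 0.11 ± 0.15 (SE) did not pass. Ccdc153, another ependymal marker, had 6.48, 6.47, 6.51, 6.38 and 6.86 in Dp3Yah mice, against 6.61, 6.20, 6.43, 6.39 and 6.62 in control mice. Dp3Yah replicate 5 was the highest of all 10 mice for this gene.

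The central apparatus and outer arm genes held the other genes at an unadjusted p under 0.05. Spag6l, a protein of the central apparatus on chromosome 16, had 7.78, 7.68, 7.86, 7.65 and 7.79 in Dp3Yah mice and 7.68, 7.43, 7.44, 7.37 and 7.65 in control mice. Only control replicate 1 lay inside the Dp3Yah range, with control replicate 5 just below it, and the change was 0.24 ± 0.07 (SE, limma adjusted p = 0.922). Spag6 and Spag6l are close copies of each other, so their separate values are uncertain. The 5 genes grouped by symbol as central apparatus (Hydin, Spag6, Spag6l, Spag16 and Spag17) had positive changes, from 0.03 to 0.24. The Cfap genes were not sorted by their place in the axoneme, and 12 of those 29 had negative changes. Of all 19939 genes, 9328 had positive and 10611 negative changes. Cfap54, which is needed for the central apparatus, had 6.85, 6.71, 6.77, 6.62 and 6.97 in Dp3Yah mice, against 6.69, 6.30, 6.46, 6.48 and 6.71 in control mice. Its change was 0.26 ± 0.08 (SE, limma adjusted p = 0.922), and control replicates 1 and 5 lay inside the Dp3Yah range. The 2 probe sets of Cfap54 averaged gave a smaller change of 0.17 ± 0.06 (SE). Dnaic1, an intermediate chain of the outer dynein arm, had 5.73, 5.63, 5.78, 5.67 and 5.79 in Dp3Yah mice and 5.53, 5.61, 5.53, 5.65 and 5.72 in control mice. The groups again overlapped, with a change of 0.11 ± 0.05 (SE, limma adjusted p = 0.922).

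Of the remaining outer arm genes, heavy chains such as Dnah5 and Dnah9 among them, none had an unadjusted p under 0.05. The same held for the 12 inner arm and other dynein genes, 8 of which had negative changes, against 10611 of all 19939 genes. It also held for the ruler genes Ccdc39 and Ccdc40, which set the repeat of the axoneme. Dnah7a, Dnah7b and Dnah7c are near-identical copies that also share 2 probe sets, so their separate values are uncertain. Among the tektins, which line the doublet microtubules, Tekt5 had the most negative change of all 68 genes. It had 8.73, 8.19, 8.91, 9.03 and 8.98 in Dp3Yah mice, against 9.01, 9.05, 8.90, 8.97 and 8.87 in control mice. Dp3Yah replicate 2 stood below every other mouse, and the change of -0.19 ± 0.13 (SE, limma adjusted p = 0.930) became -0.05 without it. That mouse was also the lowest for 23.8% of all genes. The Hsa21 homologues Cfap298 and Cfap410 had changes of 0.02 ± 0.07 and 0.02 ± 0.05 (SE). Cfap36, Cfap97, Cfap20 and Cfap52 had changes between 0.02 and 0.08, and none of the 29 Cfap genes other than Cfap54 had an unadjusted p under 0.05.

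**Figure D2:**
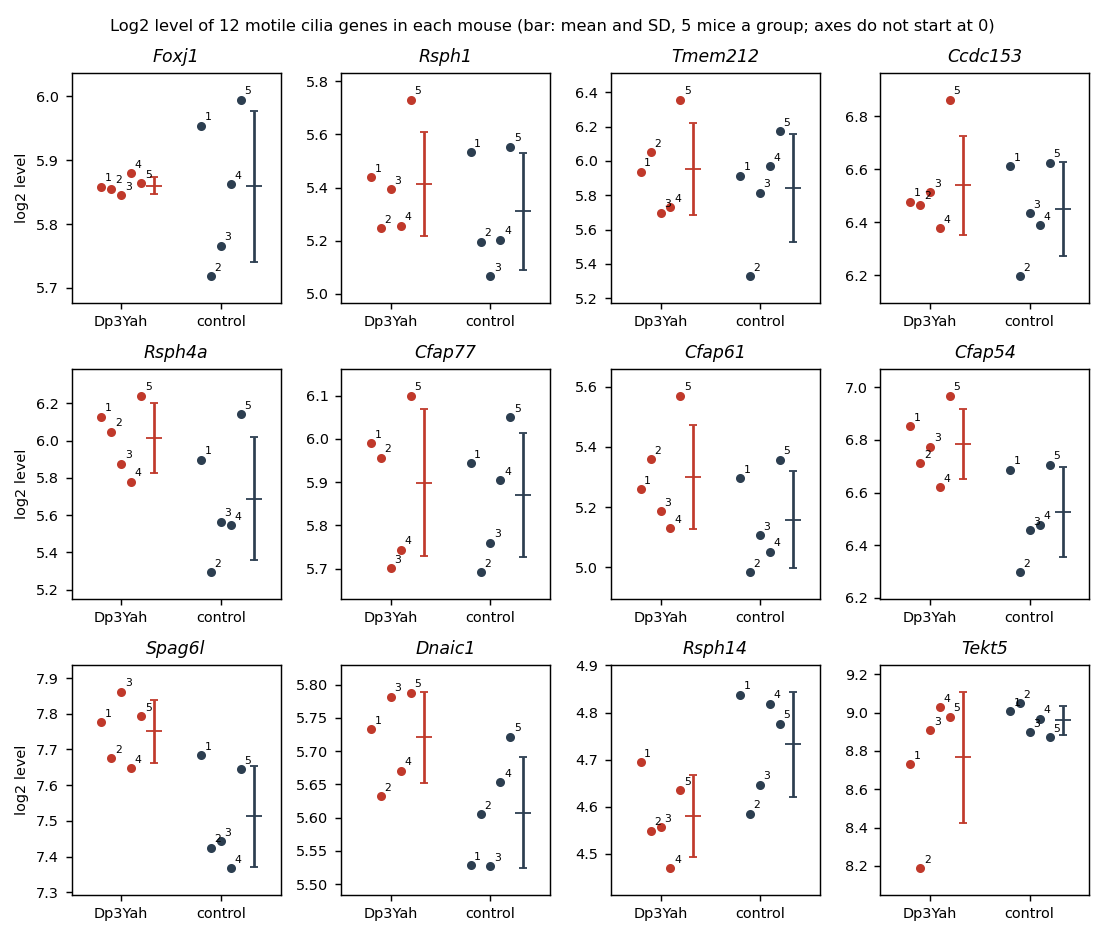
Log2 level of 12 motile cilia genes in each Dp3Yah and control mouse, with replicate numbers beside the points and the mean and SD of the 5 mice as bars. The Dp3Yah points of Foxj1 lie between 5.85 and 5.88, inside the control range of 5.72 to 5.99, and Dp3Yah replicate 2 stands apart for Tekt5.

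Averaged over the 10 genes above the median level, the motile cilia genes had log2 levels of 7.69, 7.57, 7.74, 7.65 and 7.80 in Dp3Yah replicates 1 to 5, against 7.67, 7.57, 7.61, 7.58 and 7.65 in control replicates 1 to 5. The means were 7.69 ± 0.09 in Dp3Yah mice and 7.61 ± 0.04 in control mice (SD, n = 5 each). The groups overlapped, and the difference of 0.07 was -0.03 when only the 3 genes above the 75th percentile were averaged. Of those 3, Tekt5 had a change of -0.19, against 0.02 for Cfap20 and 0.08 for Cfap36. The Tekt5 change was smaller without Dp3Yah replicate 2, as given above. Over all 68 genes the means were 5.54 ± 0.05 in Dp3Yah mice and 5.52 ± 0.07 in control mice (SD, n = 5 each). Mice differed in how often they were the extreme of the 10. Dp3Yah replicate 5 was the highest mouse for 21 of the 68 genes (30.9%, against 11.1% of all genes) and control replicate 5 for 12 (17.6%, against 10.2%). Control replicate 2 was the lowest mouse for 16 (23.5%, against 10.4%) and Dp3Yah replicate 4 for 12 (17.6%, against 7.44%). Dp3Yah replicate 2 was the lowest for 11 (16.2%), against 23.8% of all genes, the largest such share of any mouse. Control replicate 2 and Dp3Yah replicate 4 had the lowest Ttr of the 10 mice.

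The second comparison asked whether the level of each gene followed Ttr across mice, with the group in the model. Because the mice formed 2 sets with different Ttr, no correlation coefficient is given, and each result is a slope in log2 units per log2 unit of Ttr. Of the 68 genes, 3 had a positive slope that passed limma's adjusted p of 0.05 (4.41%, against 0.336% of all genes), and none had a negative one. At an unadjusted p under 0.05, 20 had a positive slope (29.4%, against 4.52% of all genes) and 0 a negative one, against 3.96% of all genes. The median slope was 0.0131, against -8.4e-05 for all genes, and 51 of the 68 motile cilia genes had a positive slope, against 49.7% of all genes.

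The highest slope belonged to the spoke head gene Rsph4a, at 0.126 ± 0.018 (SE, limma adjusted p = 0.0091). In both groups its level, given above, was higher in the mice with a Ttr level of 12.68 or more than in every other mouse of the group. Cfap61, which belongs to a complex at the base of the radial spokes, had 5.26, 5.36, 5.19, 5.13 and 5.57 in Dp3Yah mice and 5.30, 4.98, 5.11, 5.05 and 5.36 in control mice. Its slope was 0.077 ± 0.014 (SE, limma adjusted p = 0.047), and its 2 probe sets averaged gave 0.057 and an adjusted p of 0.153 in limma. Cfap77, a protein inside the doublet microtubule, had 5.99, 5.96, 5.70, 5.74 and 6.10 in Dp3Yah mice, against 5.94, 5.69, 5.76, 5.90 and 6.05 in control mice. Its slope was 0.074 ± 0.013 (SE, limma adjusted p = 0.033), and it is named here because it passed, after its values were seen.

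Of the 10 ependymal markers listed, 9 had a positive slope and Nnat a negative one (-0.018 ± 0.028, SE), and none passed. Tmem212 had a slope of 0.122 ± 0.027 (SE, limma adjusted p = 0.109), and Ccdc153 one of 0.070 ± 0.020 (SE, limma adjusted p = 0.279). Rsph1 had a slope of 0.075 ± 0.024 (SE, limma adjusted p = 0.339). For Foxj1 the slope was 0.028 ± 0.013 (SE, limma adjusted p = 0.611), the smallest of these 4. Dynlrb2, a dynein light chain, had 0.023 ± 0.014 (SE). Of the other genes with high slopes, Cfap126, which helps to position basal bodies, had 0.117 ± 0.032 (SE), and Cfap65 had 0.075 ± 0.019 (SE), neither past the threshold. By role, 3 of the 5 radial spoke genes, 2 of the 7 outer arm genes, 2 of the 12 inner arm and other dyneins, 2 of the 5 tektins, 1 of the 5 central apparatus genes and 8 of the 29 Cfap genes had a positive slope at an unadjusted p under 0.05. The lowest slopes were those of Tekt5 (-0.051 ± 0.035), Dnah7b (-0.035 ± 0.039), Cfap97, Dnah7a, Tekt2 and Cfap36, and none passed. Among the 10 genes above the median level, 5 had a positive slope, with a median of 0.0011, against 46 of the other 58, with a median of 0.0173. The slopes in Dp3Yah mice were tested against those in control mice with a group by Ttr term, which passed for 0 genes in limma. At an unadjusted p under 0.05 were 3 motile cilia genes (Foxj1, Rsph4a and Cfap161) and 553 of all genes.

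**Figure D3:**
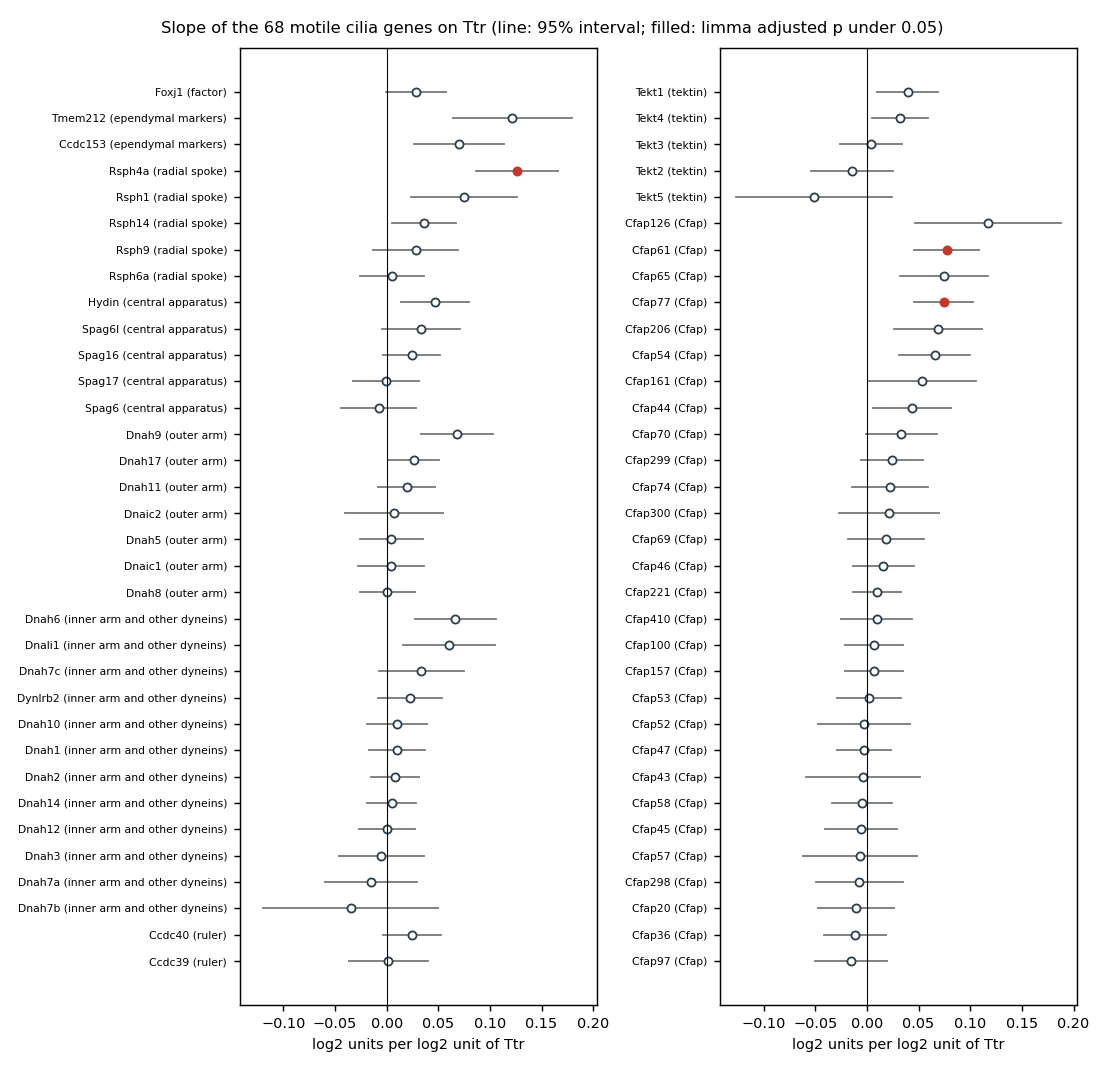
Slope on Ttr, in log2 units per log2 unit of Ttr, for each of the 68 motile cilia genes listed by role, with 95% intervals as lines, from 10 mice. Filled points mark Rsph4a, Cfap77 and Cfap61, the 3 genes with a limma adjusted p under 0.05.

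The 3 calls were lost under the alternatives that follow, while their slopes stayed positive. With the set as a further term in the model, an alternative added after the data were seen, 0 motile cilia genes and 0 genes overall passed limma's adjusted threshold. The slopes of Rsph4a, Cfap61 and Cfap77 were then 0.202 ± 0.088, 0.147 ± 0.069 and 0.126 ± 0.064 (SE), larger than over all mice but with wider errors. The median slope of the 68 genes was 0.0647, and 49 were positive (72.1%, against 53.0% of all genes). At an unadjusted p under 0.05, 7 motile cilia genes then had a positive slope (10.3%, against 2.36% of all genes), among them Rsph4a, Tmem212 and Ccdc153, and 1, Cfap97, a negative one. Tmem212 had the smallest p of these (limma adjusted p = 0.943), with a slope of 0.479. Leaving out control replicate 2, the mouse with the lowest Ttr, left 0 of the 3 calls, with slopes of 0.113 for Rsph4a, 0.077 for Cfap61 and 0.073 for Cfap77. Without both mice farthest from the median of Ttr, control replicate 2 and Dp3Yah replicate 4, 0 were left too. The slopes were then 0.116 ± 0.024, 0.077 ± 0.021 and 0.074 ± 0.019 (SE) for the same genes, close to those over all mice.

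**Figure D4:**
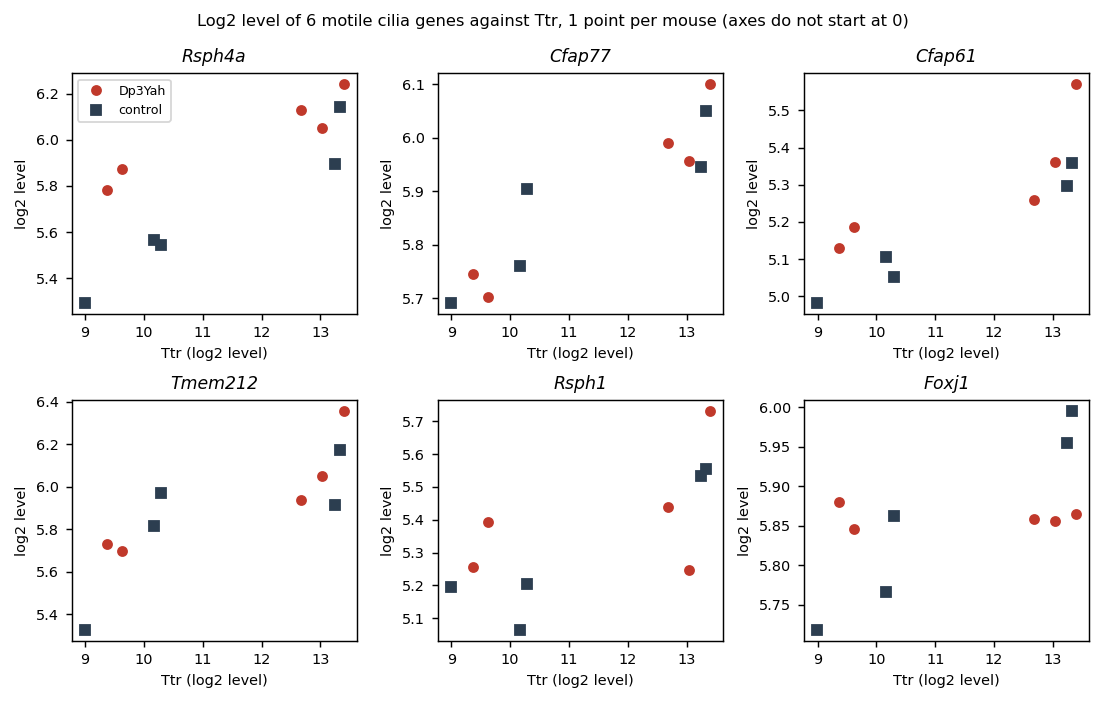
Log2 level of 6 motile cilia genes (y axis) against the log2 level of Ttr (x axis), with 1 point per mouse, Dp3Yah as circles and control as squares. The mice fall into sets at Ttr of 8.99 to 10.29 and of 12.68 to 13.40, and within both groups Rsph4a, Cfap77 and Cfap61 are higher in the set with high Ttr.

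Cilia genes outside the symbol rule were examined in the same fits. No gene of any wider list passed the adjusted threshold for Dp3Yah against control. Of 50 other genes of motile cilia, 1 passed for Ttr, against 0.336% of all genes, and 11 had a positive slope at an unadjusted p under 0.05, against 4.52% of all genes, with a median of 0.0186. The gene that passed was Stoml3, a stomatin-like protein of olfactory cilia, which had 6.44, 6.50, 6.05, 6.13 and 6.75 in Dp3Yah mice and 6.63, 5.71, 6.02, 6.02 and 6.76 in control mice. Its slope was 0.182 ± 0.019 (SE, limma adjusted p = 8.6e-04). Among 16 genes of arm docking and the nexin-dynein regulatory complex, which link the dyneins to the doublets, 1 passed, the complex subunit Drc7, with a slope of 0.154 ± 0.025 (SE, limma adjusted p = 0.024). None passed among 13 assembly factors of dynein arms, 19 regulators of multiciliogenesis, 27 genes of intraflagellar transport, 8 BBSome genes and the 5 ependymal markers outside the rule. Of those 5, 4 had a positive slope at an unadjusted p under 0.05, the highest being that of Rarres2, 0.079 ± 0.019 (SE, limma adjusted p = 0.154), and Nnat was the exception. Fam216b, 1 of those 4, is also among the 50 other genes of motile cilia and is counted in both. The genes of intraflagellar transport and the BBSome, which serve all cilia and so are expressed in many cells, had median slopes of -0.0036 and -0.0129.

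Markers of other tissue and cell types were set beside these slopes. In the list for thalamus and habenula, 1 of 6 genes passed and 4 had a positive slope at an unadjusted p under 0.05, with a median of 0.148. The gene that passed was Prkcd, a kinase of thalamic neurons, with a slope of 0.339 ± 0.060 (SE, limma adjusted p = 0.034). Tcf7l2, a transcription factor of the thalamus, had 0.237 ± 0.047 (SE, limma adjusted p = 0.067), and Tac2 had a negative slope of -0.036 ± 0.070 (SE). None of the genes passed in the lists of astrocytes (10 genes), neurons (8), neural stem and immature cells (6), microglia (6), oligodendrocytes (5), endothelium (5) and meninges and fibroblasts (8). At an unadjusted p under 0.05, 4 astrocyte genes had a positive slope (median of the list 0.0251), as did 2 oligodendrocyte genes (0.0254), 2 of meninges and fibroblasts (0.0293, with 2 negative) and 1 of neural stem and immature cells (0.0319, with 1 negative). These medians were higher than the 0.0131 of the motile cilia genes, but lower than the 0.0424 of the 5 ependymal markers outside the rule. Most motile cilia genes were at or below the median level of all genes. All listed astrocyte and oligodendrocyte genes were above it, so such medians compare genes of unlike signal. The microglia list had a median of 0.0184 with 0 such genes, the neuron list -0.0047 with 1 negative, and the endothelium list -0.0112 with 0. The part of these tissues and cell types, and of the choroid plexus itself, in the slopes of motile cilia genes was not tested.

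**Figure D5:**
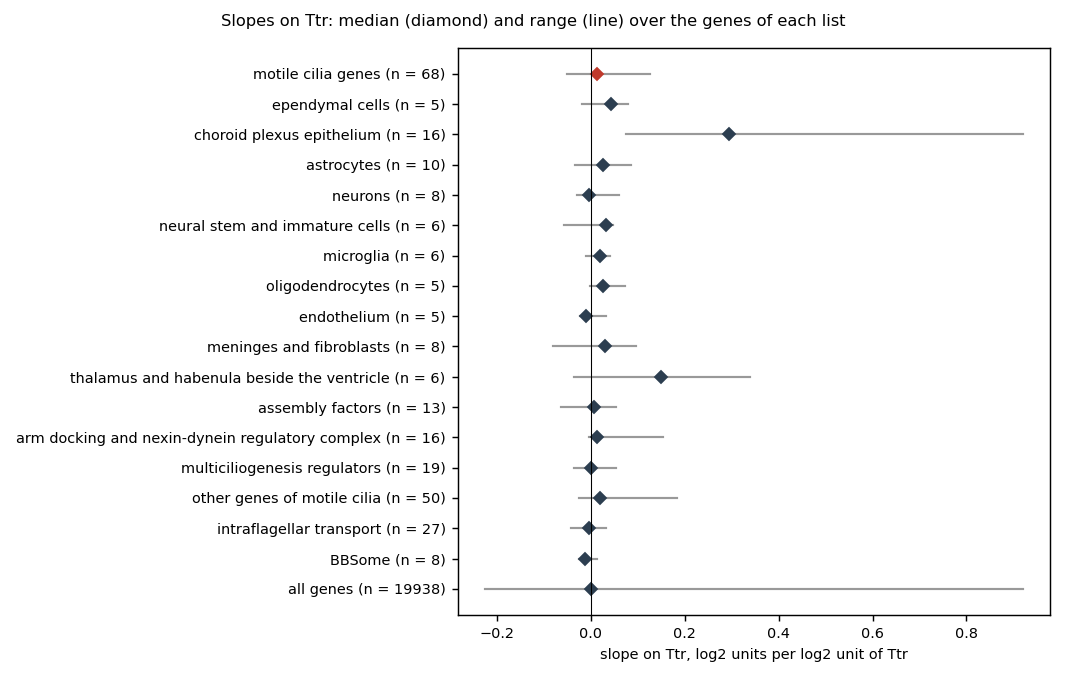
Median (diamond) and range (line) of the slopes on Ttr, in log2 units per log2 unit of Ttr, over the genes of each list, without Ttr itself and without genes that the symbol rule already holds. The choroid plexus list has a median of 0.294, the 68 motile cilia genes one of 0.0131 and all genes one near 0.

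The X-box arms shown above were compared with the slopes as a description. The 23 genes with an X-box arm in a window had a median slope of 0.0212, with 16 above 0, and the 35 with a window but no X-box arm had 0.0094, with 27 above 0. The genes whose pattern over the 10 mice was most like the mean of the 10 brighter motile cilia genes were Fyn (r = 0.927), Rspo3 (0.921), Asph (0.905), Nek11 (0.899) and Gmcl1 (0.898), followed by Nalcn, Fbxw13, Sptlc2, Eras, Dcn, Nim1k and Clta down to 0.882. These values compare points on the same arrays, and no test was made of them. They are the highest of all genes outside the rule over only 10 mice, so the choice alone yields high values.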

How the data were processed

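Total RNA of the hippocampus was hybridised to 1 array per mouse. The deposited values are log2 intensities of probe sets, normalised by the authors with RMA (background correction, normalisation between arrays and summary of probes) per the labels, which also name limma and the mm10 build. Their versions were not stated there. Of 35556 probe sets, 21789 were annotated to 1 gene and 1621 to several. For each of 19939 genes the probe set with the highest mean was kept, and 12 of the 68 motile cilia genes had several. Symbols came through gene identifiers from RefSeq GRCm38.p6.

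Group differences were fitted by limma 3.58.1 under R 4.3.3, with lmFit and eBayes. Tests were two-sided, with Benjamini-Hochberg adjustment over all genes and a threshold of 0.05. Slopes on Ttr were fitted the same way with group in the model, over 19938 genes without Ttr. A rank test of fold changes, written here after the study's method, was an alternative. It was not a run of the study's own program, so its calls are not those of the study. Array data give no counts, so the 5 mice of a group limit the precision. The labels used give no scan date or batch. The p-values set a difference or slope against the spread between these mice, with variances moderated over all genes by eBayes. The fits were tested on simulated data.

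The genes, the lists and the rule for named genes were chosen with earlier results of these data known. The rule named Foxj1, Rsph1, Tmem212, the 12 genes with the highest mean, those at an unadjusted p under 0.05, the largest and smallest changes above the median level, the 6 highest and 6 lowest slopes, Cfap298, Cfap410, the 12 genes most like the mean and up to 3 genes of each list for each comparison, most of which are not printed.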

Additional observations from a re-analysis of the deposited data

Results flagged for a closer look

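In 52 groups of 5 mice, 2 held a mouse far from the other 4 by Dixon's criterion, which chance meets in about 1 of 20 groups. Ccdc153 was 6.86 in Dp3Yah replicate 5, against 6.38 to 6.51 in the other Dp3Yah mice. Cfap126 was 6.01 in control replicate 5, against 5.35 to 5.53 in the other control mice.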

How the results depend on the processing

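The count of 0 motile cilia genes for Dp3Yah against control was also 0 under mean probe sets, genes above the median level, both other normalisations, a trended and robust variance, array weights, Ttr as a covariate and each mouse left out. It was 5 of 68 by the rank test, against 915 of all 19939 genes, and 5 at unadjusted p. The rank test put Rsph4a, Cfap54, Spag6l and Rsph9 higher and Rsph14 lower. That test cuts fixed tails of its own distribution over genes, so it calls some genes in any data. Replicate numbers did not pair the mice (correlations of deviations from -0.364 to 0.315). With a replicate block, 0 motile cilia genes and 3 of all genes passed for Dp3Yah. For Ttr, 2 motile cilia genes passed (Tmem212 positive, Tekt5 negative; 2.94%), against 3 without the block, and 358 of all genes (1.8%, 75 positive and 283 negative). The count of 3 for Ttr was 0 among genes above the median level, 1 with Ttr alone, 0 without the 2 mice farthest from its median, 0 within the 2 sets of mice, where the median slope was 0.0647, and 0 to 4 with 1 mouse left out. Leaving out Dp3Yah 3, Dp3Yah 4, Dp3Yah 5, control 3 or control 5 gave 1. The causes were not tested, apart from fewer genes or mice. The difference of the mean of the brighter genes was -0.032 above the 75th percentile, where Tekt5 was the only gene with a negative change. For single genes, 863 values kept their side of the threshold, 29 no longer passed and 3 passed only under an alternative. None reversed, counting a direction only where a value exceeded its SE. All 29 were slopes of Rsph4a, Cfap61 or Cfap77, the only named motile cilia genes called in the main fits. Most of the 863 were values that passed in neither fit, so they say little about these calls. No background signal was on hand, so how far the 58 dimmer genes stood above it is unknown.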
